A study of Mus musculus with 26 samples.

Results

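Broad anchors of RNA polymerase II loops, those at least 10 kb wide from end to end, were taken from the loop lists of a study of Klf4 in mouse E14 embryonic stem cells. In HiChIP, fragments of chromatin that lie together are ligated, the polymerase-bound ones are pulled down, and paired reads (tags) that join 2 stretches of DNA (anchors) define a loop. Every anchor with an end minus start of at least 10000 bases was kept, whatever the tags of its loops. It was then marked by whether it shared at least 1 base with a broad anchor of the other list. This gave 1820 broad anchors of 75211 anchors in all, 958 of 51088 in the list labelled Klf4-knockout (KO-labelled) and 862 of 24123 in the list labelled wild type (WT-labelled). The regions were thus chosen by measured values, the anchor coordinates that set width and meeting, and these, with the loops and tags of the same lists, are given as description without a test.

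The samples used were KLF4-KO cells and WT cells of the E14 line, both labelled as neural progenitor cells taken after 12 days of neural induction. Per the labels' protocols, the stem cells had been grown on gelatin in medium with LIF and serum, to which the MEK inhibitor PD0325901 and the GSK3 inhibitor CHIR99021 were added. Each label had 2 HiChIP samples, deposited as 1 loop list per label, so the loop data have no replicate check. Each label also had 2 RNA-seq libraries, which the series design calls biological replicates. The sources used here do not say how the deletion was made or how many clones were used.

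The targeted gene went against the labels in RNA. Klf4 had 2571 and 2538 counts in the KO-labelled libraries, against 0 and 0 in the WT-labelled libraries, or at least 752-fold more in KO-labelled cells with a floor of 3 counts per library (edgeR, adjusted p = 1.25e-23). No broad anchor covered Klf4 in either list. A narrower anchor did, of 6182 bases with 33 tags in the KO-labelled list and of 8934 bases with 41 tags in the WT-labelled list. Every direction below is therefore a direction between libraries as labelled.

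KO-labelled libraries held 31909094 and 33347088 gene counts, and WT-labelled libraries 37703866 and 29835774. Rows that name no gene took a further 22.3% and 22.5% of the column totals in KO-labelled libraries and 20.4% and 21.1% in WT-labelled ones. Naive and core pluripotency markers were high in sum under both labels, though neural progenitors should have lost most of them. Sox2, which is among them, is shared by stem cells and neural progenitors. The 13 markers summed to 4740 and 4820 counts per 1000000 gene counts (CPM) in KO-labelled libraries and to 8960 and 8980 CPM in WT-labelled libraries. Of 8 neural progenitor markers, 6 were called higher and 1 lower in KO-labelled libraries. Their sum was 336 and 342 CPM there and 839 and 843 CPM in WT-labelled libraries, where Hes5 and Fabp7 were at 0. The larger WT-labelled sum thus rests on the 1 marker called lower. All 8 mesoderm, muscle and fibroblast markers were higher in KO-labelled libraries, at 460 and 444 CPM in sum against 15.2 and 15.2 CPM in WT-labelled libraries, where Actc1 was at 0. Endoderm markers summed to 36.1 and 37.2 CPM in KO-labelled libraries and to 1.05 and 1.34 CPM in WT-labelled ones, and trophoblast markers to 430 and 424 CPM and to 34.3 and 32.1 CPM. Primed epiblast markers, all 7 called higher in KO-labelled libraries, summed to 763 and 754 CPM there and to 316 and 315 CPM in WT-labelled libraries. The part of these markers in the results below was not tested. In bulk samples, fewer cells of a type and less RNA per cell cannot be told apart.

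RNA polymerase II transcribes protein-coding genes and most microRNA hosts. Its footprint is narrow at a paused promoter and becomes wide where many polymerases move along a gene or where a string of enhancers is occupied. In embryonic stem cells, such long occupied stretches are known at genes that define the cell, among them Pou5f1, Nanog, Esrrb and the miR-290 cluster, and they are often called super-enhancers. KLF4 is a zinc-finger factor that binds GC-rich sites at many of these stretches. During neural induction this set of genes is normally silenced while neural genes such as Sox1 and Nes, and the microRNA miR-9, come on.

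MicroRNA genes lay under broad anchors of both lists, 19 under anchors broad in the KO-labelled list alone, 25 under anchors broad in the WT-labelled list alone and 4 under meeting anchors, of 1228 microRNA genes in the annotation. Among all 49943 annotated genes, 2207 lay under broad anchors. For 47 of the 48 microRNA genes, RefSeq's table of GRCm38.p6 holds mature sequences. The widest broad anchor of the KO-labelled list, chr3:88197397-88243975, held Mir9-1, and another of 29410 bases, chr7:79498757-79528166, held Mir9-3. Both genes give the same mature strands, which are shown here with the seed, bases 2 to 8, in capitals.
mmu-miR-9-5p: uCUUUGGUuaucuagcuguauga
mmu-miR-9-3p: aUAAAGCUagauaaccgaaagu

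Among the other KO-labelled anchors that met no broad WT-labelled anchor, chr17:34023113-34033553 held Mir219a-1, whose product is known in the brain for its role in myelinating glia, and chr1:74384144-74394587 held Mir26b. They are shown because neither lay under a broad anchor of the WT-labelled list.
mmu-miR-219a-5p: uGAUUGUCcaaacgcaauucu
mmu-miR-26b-5p: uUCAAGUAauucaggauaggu

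In the WT-labelled list a broad anchor of 25839 bases, chr7:3196130-3221968, held the whole miR-290 to miR-295 cluster, the most abundant microRNAs of mouse embryonic stem cells. Of its 3p strands, those of miR-291a, miR-294 and miR-295 are shown because they share the seed AAGUGCU, and those of miR-290a and miR-291b because their seeds differ from it in the last base alone. The other 3p strands at hand for the cluster have other seeds and are not shown. For miR-292a only the 5p strand was at hand, so the seed of its 3p strand was not compared.
mmu-miR-291a-3p: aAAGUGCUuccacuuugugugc
mmu-miR-294-3p: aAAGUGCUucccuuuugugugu
mmu-miR-295-3p: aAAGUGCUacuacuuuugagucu
mmu-miR-290a-3p: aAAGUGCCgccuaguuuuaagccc
mmu-miR-291b-3p: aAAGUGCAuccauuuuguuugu

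At these microRNA genes the lists differed as follows, in raw tags of 977208 in the KO-labelled and 407150 in the WT-labelled list. The Mir9-1 anchor had 666 tags over 108 loops in the KO-labelled list, and no anchor of any width covered the gene in the WT-labelled list. At Mir9-3, the KO-labelled anchor had 555 tags, and the WT-labelled list had an anchor of 2089 bases with 26 tags. The third gene of the family, Mir9-2, had a narrow KO-labelled anchor of 4021 bases with 26 tags and no WT-labelled anchor. The miR-290 anchor had 268 tags over 44 loops in the WT-labelled list, and the KO-labelled list had no anchor at Mir290a. Mir219a-1 had 237 tags in the KO-labelled list and a narrower anchor with 71 tags in the WT-labelled list. RNA-seq gave no reading of these genes, since Mir9-1 and Mir290a had 0 counts in all 4 libraries. A count table of gene symbols is not a measure of mature microRNAs.

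Broad anchors were few in number, and their loops held a larger share of the tags than of the loops. They made up 1.88% of KO-labelled anchors and 3.57% of WT-labelled anchors, and covered 13.5 of 173 Mb and 12.7 of 92.5 Mb of anchor sequence, or 7.79% and 13.7%. Loops with a broad anchor at either end were 11.3% of KO-labelled and 17.4% of WT-labelled loops. They held 20.4% of 977208 KO-labelled tags and 35.4% of 407150 WT-labelled tags. Since either end counts, these shares are not on the scale of the shares of anchors and bases. The median broad anchor had 196 tags over 58 loops in the KO-labelled list and 153.5 tags over 27 loops in the WT-labelled list. Narrower anchors had medians of 23 tags and 15 loops in the KO-labelled list, and of 16 tags and 9 loops in the WT-labelled list. Tags per kb of anchor had medians of 15.3 for broad against 8.28 for narrower KO-labelled anchors, and of 11.1 against 5.55 for WT-labelled ones. The KO-labelled list is the deeper of the lists, so raw tags are not comparable between them.

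Most broad anchors were little wider than the threshold. The median width was 12440.5 bases in the KO-labelled list and 12819 bases in the WT-labelled list, and 428 and 341 anchors lay below 12 kb. At the far end, 89 KO-labelled and 115 WT-labelled anchors were 20 kb or wider, up to 46579 and 49785 bases. Just inside the threshold stood KO-labelled anchors of 10000, 10003 and 10009 bases with 242, 172 and 243 tags, and just outside it anchors of 9998, 9997 and 9997 bases with 204, 108 and 87 tags. In the WT-labelled list the nearest inside were 10001, 10011 and 10018 bases with 171, 17 and 127 tags, and the nearest outside 9999, 9996 and 9994 bases with 60, 64 and 46 tags. Tags on both sides overlapped, so 10 kb marks no natural break.

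**Figure D1:**
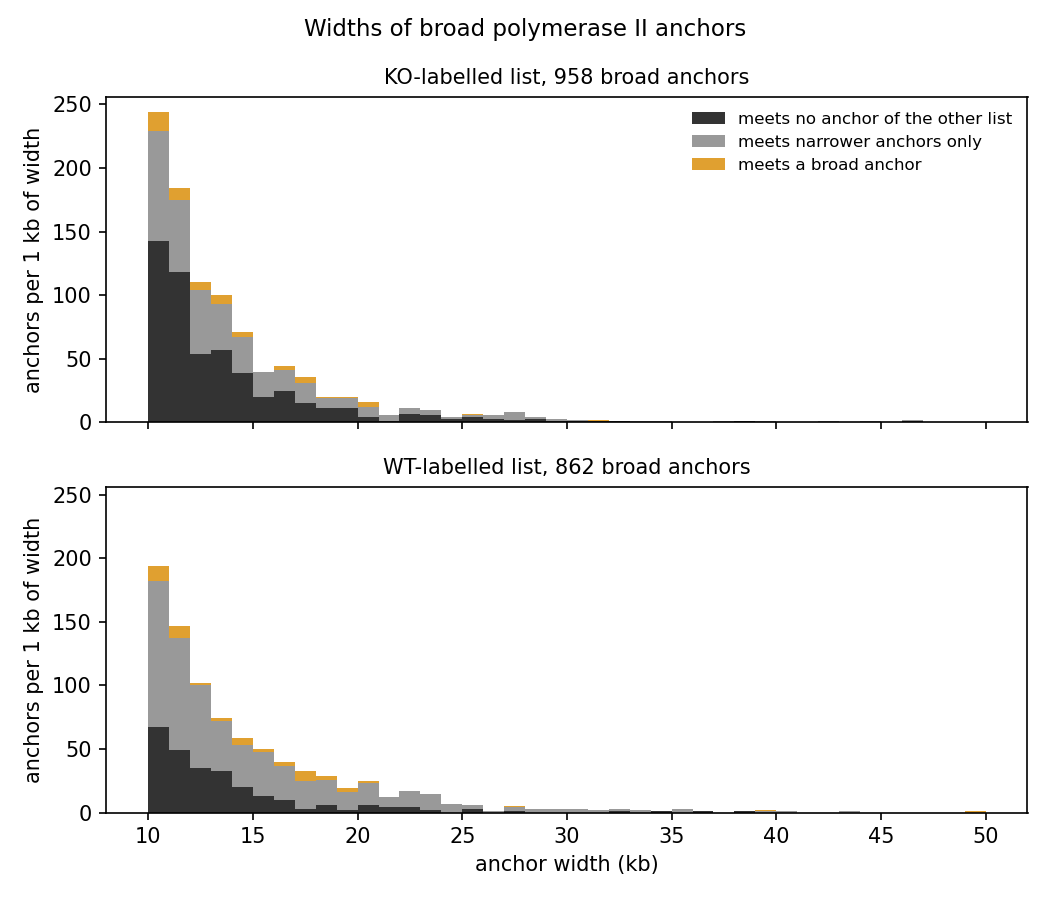
Number of broad anchors per 1 kb of width in the KO-labelled list (top) and the WT-labelled list (bottom), shaded by what they meet in the other list. Counts fall steeply from 10 kb in both lists, and anchors that meet a broad anchor of the other list, 57 and 56, are a thin layer at most widths.

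Few regions were broad in both lists. Of the KO-labelled broad anchors, 57 (5.95%, Clopper-Pearson 95% interval 4.54 to 7.64) met a broad WT-labelled anchor, and of the WT-labelled ones 56 (6.5%, 4.94 to 8.35) met a broad KO-labelled anchor. A further 369 KO-labelled and 544 WT-labelled broad anchors met narrower anchors only, and 532 (55.5%) and 262 (30.4%) met no anchor of the other list at all. Where they met any, the other list covered a median of 32.7% of the KO-labelled and 35.4% of the WT-labelled broad anchor, and the widest partner had a median of 4080.5 and 3901.5 bases. A single broad anchor stood opposite at least 2 separate anchors in 119 KO-labelled and 227 WT-labelled cases. Within a list, anchors never overlapped and the smallest gap was 501 bases in both. The KO-labelled list offered 51088 anchors to meet and the WT-labelled list 24123, so the shares that met none are not comparable between lists. The intervals cover counting error only.

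Tags were also divided by each list's total and given per 1000000 tags. KO-labelled broad anchors that met narrower anchors only had a median of 221 in their own list, and the WT-labelled anchors they met had 78.6. WT-labelled broad anchors of that kind had 395 in their own list, against 57.3 for the KO-labelled anchors they met. Of these, 311 of 369 KO-labelled and 531 of 544 WT-labelled anchors had the larger share in the list where they were broad. Broad anchors that met each other had 224 for the KO-labelled members and 447 for the WT-labelled ones. These sums depend on how much sequence was called in each list.

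At least 1 gene body was touched by 88.9% of KO-labelled and 83.9% of WT-labelled broad anchors, against 75.6% and 76.8% of narrower ones. Gene bodies made up 75.4% of the bases of KO-labelled broad anchors and 56.8% of WT-labelled ones, where narrower anchors had 67.3% and 62.1%. Annotated starts were present in 50.9% and 59.0% of broad anchors but were sparser along them, at 0.0561 and 0.0674 per kb against 0.119 and 0.172 per kb in narrower anchors. In all, 2207 genes lay under broad anchors, 1774 of which had a row in the RNA-seq count table, and 245 broad anchors touched no annotated gene.

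The promoters inside broad anchors also differed in base composition from those inside narrower ones. RefSeq's table gives 250 bases before and 50 after each annotated start. A CpG ratio, observed over expected, of at least 0.6 was found in 37.6% of 596 promoters under anchors broad in the KO-labelled list alone and in 55.6% of 554 under anchors broad in the WT-labelled list alone. Promoters under narrower anchors had 65.5% in the KO-labelled and 75.9% in the WT-labelled list, and all 32851 promoters had 35.8%. The sites GGGTGTGG and GGGCGTGG, of the type bound by KLF factors, were searched on both strands. Either was present in 11.1% of promoters broad in the KO-labelled list alone, 9.93% of those broad in the WT-labelled list alone, 12.0% and 13.2% of those under narrower anchors, and 8.58% of all promoters. TATAAA was present in 8.56% of promoters broad in the KO-labelled list alone and 10.5% of those broad in the WT-labelled list alone, against 6.9% and 6.06% under narrower anchors and 13.6% of all promoters. CCAAT was present in 32.4% and 40.3%, against 36.3% and 36.9% under narrower anchors and 37.4% of all. The CArG box, a site of the serum response factor, was present in 1.01% and 1.44%, against 1.48% and 1.27% under narrower anchors and 1.63% of all. Starts of the same gene share bases, so these shares are a description.

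Promoters of 6 genes are printed, 5 that passed the RNA test in either direction and Mybl2, which did not; with library size alone Mybl2 passed and Sox2 did not. Capitals mark any match to GGGTGTGG, GGGCGTGG, TATAAA or CCAAT on either strand, and the other strand reads CCACACCC, CCACGCCC, TTTATA or ATTGG. Tfcp2l1 (chr1:118627695-118627994, plus strand), Nanog (chr6:122707239-122707538, plus strand) and Mybl2 (chr2:163054385-163054684, plus strand) lie inside anchors broad in the WT-labelled list alone.
Tfcp2l1: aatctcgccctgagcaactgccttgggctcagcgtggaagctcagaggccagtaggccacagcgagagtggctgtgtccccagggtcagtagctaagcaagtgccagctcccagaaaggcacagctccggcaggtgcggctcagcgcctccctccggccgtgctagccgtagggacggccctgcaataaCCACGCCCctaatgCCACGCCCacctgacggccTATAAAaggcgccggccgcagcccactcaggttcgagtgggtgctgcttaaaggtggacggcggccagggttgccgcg
Nanog: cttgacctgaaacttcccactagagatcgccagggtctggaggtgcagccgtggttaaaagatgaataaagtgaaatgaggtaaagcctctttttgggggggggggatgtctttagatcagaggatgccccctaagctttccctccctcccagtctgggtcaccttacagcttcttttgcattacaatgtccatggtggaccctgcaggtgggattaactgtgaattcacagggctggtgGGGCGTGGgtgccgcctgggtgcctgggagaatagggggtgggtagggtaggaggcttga
Mybl2: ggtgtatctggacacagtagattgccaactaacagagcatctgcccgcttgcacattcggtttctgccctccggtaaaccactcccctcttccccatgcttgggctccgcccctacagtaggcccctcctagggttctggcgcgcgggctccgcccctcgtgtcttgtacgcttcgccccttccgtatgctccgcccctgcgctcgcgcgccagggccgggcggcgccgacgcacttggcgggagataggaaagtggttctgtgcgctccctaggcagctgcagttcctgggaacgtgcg

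Fos (chr12:85473640-85473939, plus strand) and Notch1 (chr2:26503773-26504072, minus strand) lie inside anchors broad in the KO-labelled list alone, and Sox2 (chr3:34649745-34650044, plus strand) inside an anchor broad in both lists.
Fos: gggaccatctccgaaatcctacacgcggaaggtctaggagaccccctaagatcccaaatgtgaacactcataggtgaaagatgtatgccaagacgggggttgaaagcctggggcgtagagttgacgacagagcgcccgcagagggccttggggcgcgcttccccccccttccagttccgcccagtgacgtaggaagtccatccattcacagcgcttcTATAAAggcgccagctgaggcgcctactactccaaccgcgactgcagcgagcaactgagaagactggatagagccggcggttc
Notch1: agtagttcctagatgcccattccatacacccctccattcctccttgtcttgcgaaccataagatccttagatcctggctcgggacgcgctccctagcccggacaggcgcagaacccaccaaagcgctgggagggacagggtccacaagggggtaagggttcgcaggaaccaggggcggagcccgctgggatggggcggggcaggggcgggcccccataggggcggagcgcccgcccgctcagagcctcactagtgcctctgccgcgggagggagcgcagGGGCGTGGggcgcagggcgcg
Sox2: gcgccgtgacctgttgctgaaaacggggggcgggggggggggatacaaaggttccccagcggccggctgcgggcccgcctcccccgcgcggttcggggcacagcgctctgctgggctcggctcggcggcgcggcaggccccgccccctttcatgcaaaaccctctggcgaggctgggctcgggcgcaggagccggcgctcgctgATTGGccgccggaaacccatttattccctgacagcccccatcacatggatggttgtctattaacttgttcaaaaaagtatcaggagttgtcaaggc

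In these windows, Tfcp2l1 had adjacent GGGCGTGG matches followed by a TATAAA match just before its start, Nanog had a single GGGCGTGG match and 4 CpG dinucleotides, and Mybl2 had no match and 26. Notch1 carried its GGGCGTGG match just after the start. No such match says that a factor was bound.

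RNA-seq took no part in choosing the anchors and was read at the genes whose bodies they touch. Genes under anchors broad in the KO-labelled list alone were more often higher in KO-labelled RNA, and genes under anchors broad in the WT-labelled list alone were more often lower. Of 1080 genes under anchors broad in the KO-labelled list alone, 860 had a count row and 665 passed the filter on low counts. Of those, 385 (57.9%) rose and 150 (22.6%) fell (edgeR, quasi-likelihood F-test, adjusted p below 0.05 by Benjamini-Hochberg over 17273 genes). Of all genes tested, 73.1% were called, 37.2% as higher and 35.8% as lower. Their median log2 fold change was 0.55, against 0.03 over all genes tested. Of 1038 genes under anchors broad in the WT-labelled list alone, 844 had a row and 702 passed the filter, of which 135 (19.2%) rose and 442 (63.0%) fell, with a median of -0.56. Of 124 genes under meeting anchors, 102 had a row and 80 passed, 20 of which rose and 33 fell, with a median of -0.15. A gene that passed the filter through 1 label alone had to differ, so these counts describe the genes that passed, and 195, 142 and 22 genes of the sets with a row did not.

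The same order held for changes of at least 2-fold, of which there were 267 higher and 45 lower for anchors broad in the KO-labelled list alone, and 34 and 233 for anchors broad in the WT-labelled list alone. Over all genes tested, 22.3% were higher and 11.4% lower by that measure. Scaling by library size alone moved the median of all genes by 0.21 on the log2 scale and raised the share of calls that were higher in KO-labelled libraries to 62.0%, against 50.9% with TMM scaling. Under that scaling the share among meeting anchors was 50.0% against 37.7%, so the balance at meeting anchors depends on the scaling. For anchors broad in the KO-labelled list alone it was 78.4% against 72.0%, and for those broad in the WT-labelled list alone 33.1% against 23.4%, with medians of 0.76 and -0.35. Under a filter of at least 10 CPM on the mean of all libraries, the 3 sets had 212 higher and 119 lower of 379 genes, 111 and 356 of 522, and 13 and 25 of 42, where all genes had 3261 and 4726 of 9461.

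What a broad anchor met in the other list went with the size of the RNA difference. Genes under KO-labelled broad anchors that met no WT-labelled anchor had a median log2 fold change of 0.93, with 215 of 335 higher and 54 lower. Those under KO-labelled broad anchors that met narrower anchors only had 0.26, with 192 of 371 higher and 106 lower. For WT-labelled broad anchors the medians were -0.72 where they met no KO-labelled anchor, with 27 of 154 higher and 104 lower, and -0.52 where they met narrower ones, with 112 of 563 higher and 348 lower. Genes touched only by narrower anchors had medians of 0.02 for the KO-labelled and -0.09 for the WT-labelled list. By width, the medians were 0.53 for 10 to 15 kb and 0.54 for 15 kb or wider among KO-labelled anchors and of -0.52 and -0.68 among WT-labelled ones. The 23 genes under a separate broad anchor of each list, among them Msi2, Bmp7 and Tns1, were 9 higher and 9 lower.

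**Figure D2:**
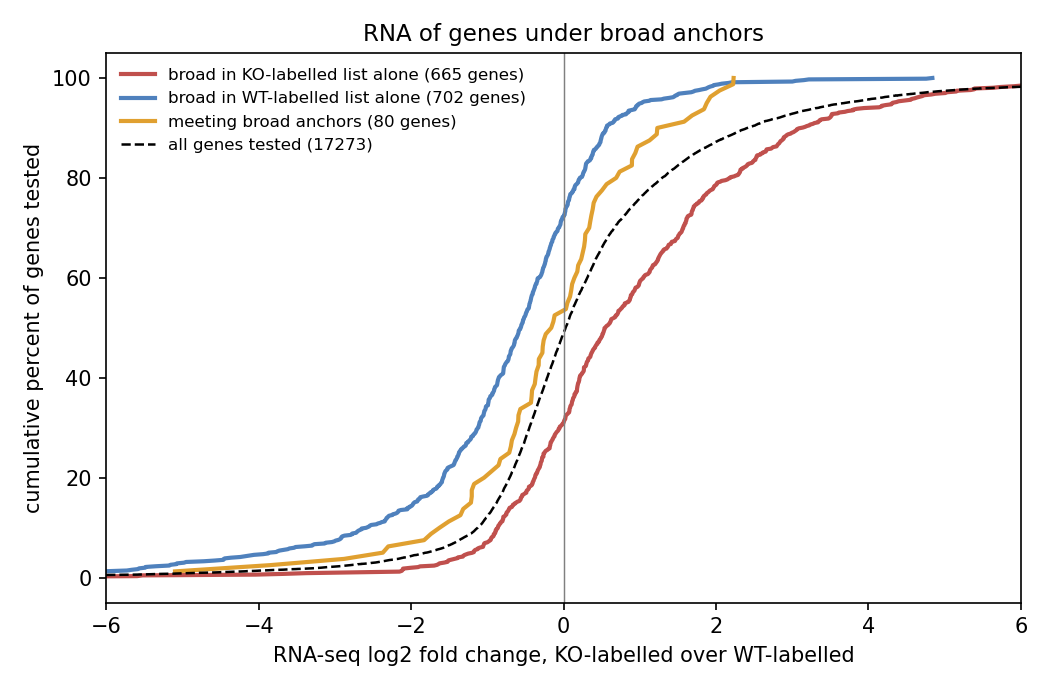
Cumulative percent of genes tested (vertical axis) by RNA-seq log2 fold change, KO-labelled over WT-labelled, for genes under anchors broad in the KO-labelled list alone, in the WT-labelled list alone, meeting anchors, and all genes tested. The curve for anchors broad in the KO-labelled list alone lies to the right of that for all genes (median 0.55 against 0.03) and that for anchors broad in the WT-labelled list alone to the left (-0.56).

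Genes of the pluripotency network lay under broad anchors of the WT-labelled list and mostly fell. Of 32 genes in the naive and core pluripotency list, 14 lay under anchors broad in the WT-labelled list alone, 2 under meeting anchors and none under anchors broad in the KO-labelled list alone. Of those 14, 11 fell in KO-labelled RNA, 2 rose and 1 did not pass, and over the whole list 20 fell and 10 rose. Tfcp2l1, a naive-state transcription factor, had 135 and 135 CPM in KO-labelled libraries, against 1020 and 1020 CPM in WT-labelled libraries (log2 fold change -2.92 ± 0.028 SE, n = 2 each, edgeR adjusted p = 1.67e-29). Its body held adjacent WT-labelled broad anchors of 17775 and 16133 bases with 239 and 278 tags. The widest KO-labelled anchors that met them were 2564 and 3376 bases.

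Tbx3, a T-box factor of the same state, had 25.1 and 29.6 CPM in KO-labelled libraries, against 286 and 291 CPM in WT-labelled libraries (log2 fold change -3.40 ± 0.053, edgeR adjusted p = 3.78e-22). A WT-labelled anchor of 22881 bases with 475 tags covered it whole, where the KO-labelled list had 2281 bases. Nanog, the homeobox gene of naive cells, had 406 and 407 CPM in KO-labelled libraries, against 1140 and 1140 CPM in WT-labelled libraries (log2 fold change -1.49 ± 0.024, edgeR adjusted p = 5.78e-25). Its start lay in a WT-labelled anchor of 14613 bases with 525 tags. For each of these genes the libraries of the 2 labels did not overlap, as for 86.3% of all genes tested.

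The other members that fell had values between -1.66 and -0.42. The log2 fold change was -1.66 for Dppa2, a chromatin regulator, and -1.04 for Zfp42, the gene of the stem cell marker Rex1. It was -0.98 for Tdh, the threonine dehydrogenase of mouse stem cells, and -0.97 for Pou5f1, which encodes Oct4. It was -0.68 for Dppa5a, -0.64 for Fbxo15, -0.51 for Tdgf1, the co-receptor of Nodal, and -0.42 for Fgf4, the main autocrine FGF ligand of stem cells. At Pou5f1 the WT-labelled anchor spanned 20500 bases with 458 tags, and the KO-labelled list touched 2.89% of it. Dppa2, Dppa5a, Fgf4, Tdh and Zfp42 had a broad WT-labelled anchor and no KO-labelled anchor on it, though their RNA stayed at 28.3 to 1390 CPM on average in KO-labelled cells. Levels of different genes are not compared here, as CPM is not per length.

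Members that did not fall stood under WT-labelled anchors of like width. Klf2, a KLF family member, had 457 and 474 CPM in KO-labelled libraries, against 337 and 319 CPM in WT-labelled libraries, and rose (log2 fold change 0.50 ± 0.031, edgeR adjusted p = 1.55e-13) under a WT-labelled anchor of 17349 bases. Phc1, a Polycomb subunit, rose by 0.27 under an anchor of 11259 bases. Jarid2, a Polycomb cofactor, had 326 and 318 CPM in KO-labelled libraries and 325 and 327 CPM in WT-labelled libraries, which overlap, under an anchor of 23060 bases with 464 tags. A broad anchor in the WT-labelled list alone was thus found with RNA in each direction.

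Esrrb and Sox2 were broad in both lists. Esrrb, an orphan nuclear receptor of the naive network, carried the widest anchor of the series, 49785 bases at chr12:86463597-86513381 in the WT-labelled list, with 449 tags. The KO-labelled list had 5 anchors across the stretch, among them a broad anchor of 13112 bases with 355 tags over its far end. Per 1000000 tags of each list, the broad anchors had 363 in the KO-labelled and 1100 in the WT-labelled list. All 5 KO-labelled anchors across the stretch together had 988, close to the WT-labelled value. Esrrb RNA had 474 and 488 CPM in KO-labelled libraries, against 931 and 925 CPM in WT-labelled libraries (log2 fold change -0.95 ± 0.025, edgeR adjusted p = 9.36e-21). The strongest loop of the WT-labelled anchor, with 65 tags, reached 419 kb to another broad anchor at the long noncoding Gm26698, chr12:86887434-86926893, which had 1253 tags, the most of any broad anchor. That anchor was joined by 370 tags to a broad anchor on Irf2bpl, a transcriptional regulator whose RNA was 105 and 110 CPM in KO-labelled libraries and 155 and 156 CPM in WT-labelled libraries (log2 fold change -0.53, edgeR adjusted p = 1.09e-11). It was the strongest loop between broad anchors of the WT-labelled list.

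At Sox2, a factor shared by stem cells and neural progenitors, the KO-labelled anchor was the wider, with 20099 bases against 11364 bases in the WT-labelled list, but held 228 tags per 1000000 of its list against 587. Sox2 RNA had 438 and 473 CPM in KO-labelled libraries, against 543 and 530 CPM in WT-labelled libraries (log2 fold change -0.23 ± 0.032, edgeR adjusted p = 9.02e-07). With library size alone the difference was -0.02 and did not pass.

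**Figure D3:**
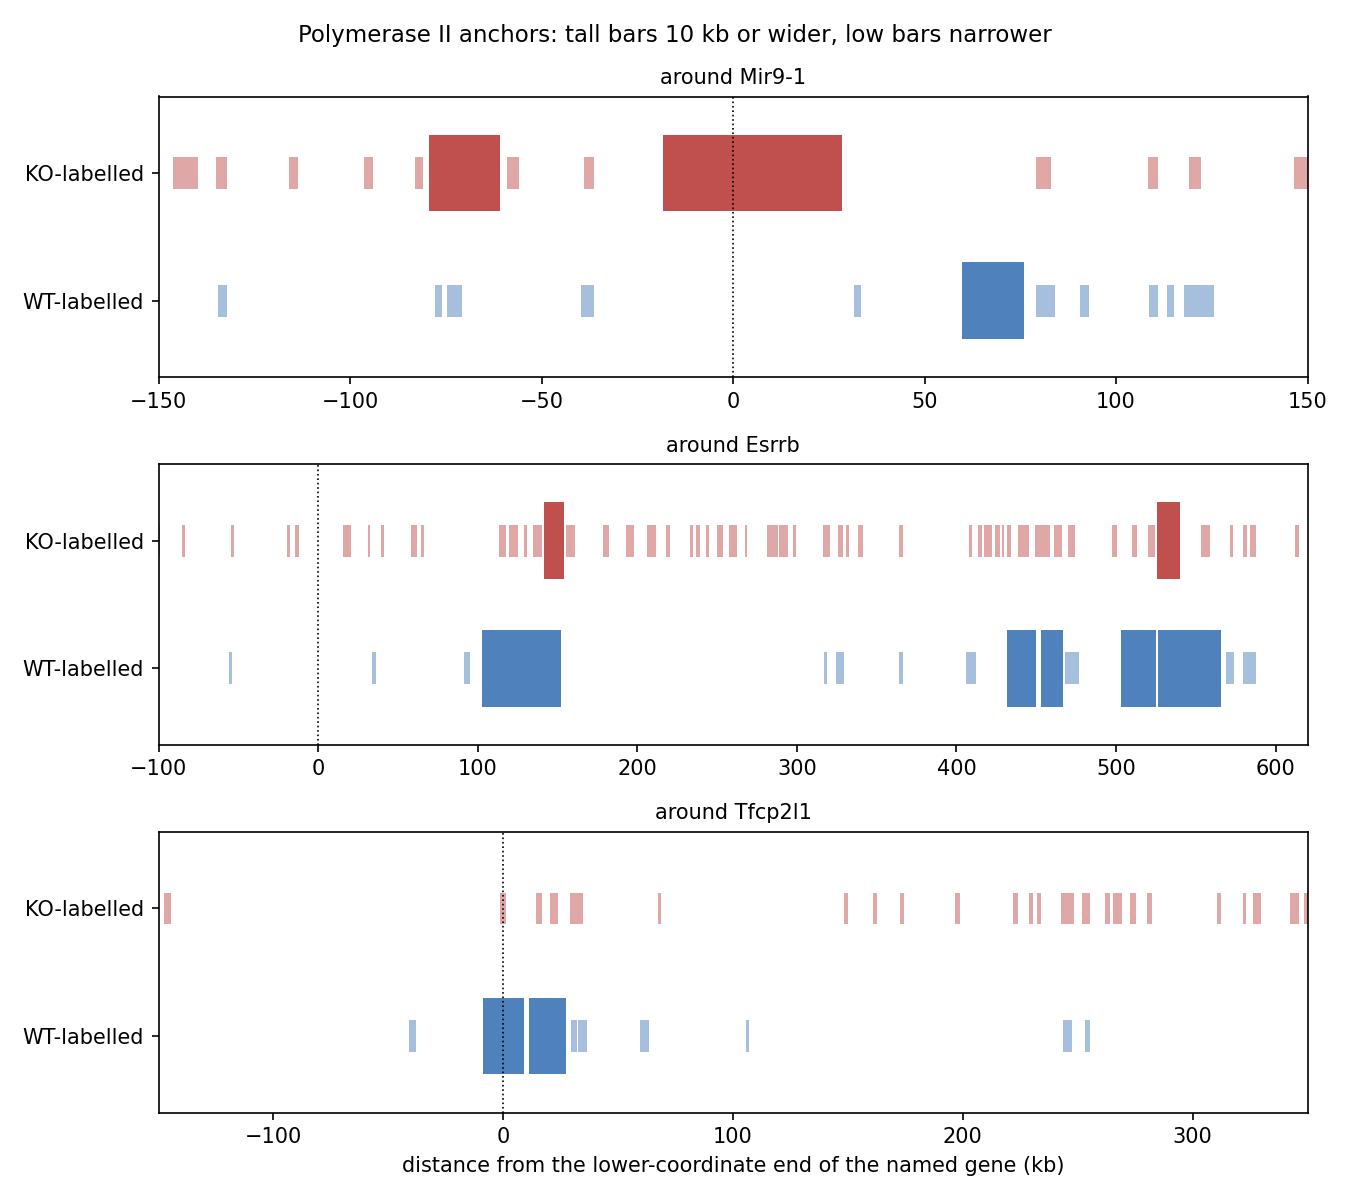
Anchors of the KO-labelled list (upper row, red) and WT-labelled list (lower row, blue) by distance in kb from the lower-coordinate end of Mir9-1, Esrrb and Tfcp2l1; tall bars are 10 kb or wider and low pale bars narrower. The windows hold 2, 2 and 0 broad KO-labelled anchors and 1, 5 and 2 broad WT-labelled ones.

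Broad anchors of the KO-labelled list alone covered 6 of 23 neural progenitor genes, and all 6 rose in KO-labelled RNA, as did 17 of the 22 in the list that were tested. Notch1, a receptor that maintains progenitors, had 87.9 and 88.4 CPM in KO-labelled libraries, against 45.9 and 42.3 CPM in WT-labelled libraries (log2 fold change 1.00 ± 0.057, edgeR adjusted p = 4.44e-14). Its anchor spanned 25514 bases with 606 tags, where the widest WT-labelled anchor had 6476 bases. Its ligand gene Dll1 had 6.42 and 6.16 CPM in KO-labelled libraries, against 0.798 and 0.831 CPM in WT-labelled libraries (log2 fold change 2.95 ± 0.27, edgeR adjusted p = 6.07e-10), under an anchor of 13030 bases that met none.

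Sox1, the earliest marker of neuroectoderm, had 13 and 15.3 CPM in KO-labelled libraries, against 3.02 and 1.59 CPM in WT-labelled libraries (log2 fold change 2.58 ± 0.21, edgeR adjusted p = 4.01e-10). Sox21, a repressor that acts with the Sox1 family, rose by 2.30, and Lhx2, a forebrain homeobox gene, had 37 and 31 counts in KO-labelled libraries and 2 and 2 in WT-labelled ones. Nes, the intermediate filament nestin, had 94.4 and 98.9 CPM in KO-labelled libraries, against 73.4 and 73.3 CPM in WT-labelled libraries (log2 fold change 0.40 ± 0.049, edgeR adjusted p = 7.32e-08). Its KO-labelled anchor of 11886 bases had 366 tags and met none. Hes1, a Notch target, was broad in the WT-labelled list alone and had 35.0 and 37.2 CPM in KO-labelled libraries and 35.3 and 38.3 CPM in WT-labelled libraries, which overlap. Its WT-labelled anchor of 14723 bases was 92.0% covered by KO-labelled anchors, the widest of 9773 bases and so just below the threshold. None of the 15 neuronal and none of the 15 endoderm genes lay under a broad anchor of either list. Of all 49943 annotated genes 2207 did, so none of 15 is near the share over all genes.

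Of 29 mesoderm, muscle and fibroblast genes, 5 lay under anchors broad in the KO-labelled list alone and all 5 rose, as did 24 of the 27 in the list that were tested. Col1a1, the main chain of fibrillar collagen, had 106 and 101 CPM in KO-labelled libraries, against 0.826 and 0.65 CPM in WT-labelled libraries (log2 fold change 7.1 ± 0.11, edgeR adjusted p = 1.95e-25), under an anchor of 12086 bases with 201 tags. Flnc, the muscle filamin, had 196 and 189 CPM in KO-labelled libraries, against 6.33 and 7.37 CPM in WT-labelled libraries (log2 fold change 4.82 ± 0.064, edgeR adjusted p = 9.25e-27), under an anchor of 15429 bases that met none. Cyr61, a matricellular protein induced by YAP, rose by 3.50, Col4a2, a basement membrane collagen, by 3.23 and Lmna, the A-type lamin, by 1.88. Fn1, fibronectin, was broad in the WT-labelled list alone and had 1360 and 1330 CPM in KO-labelled libraries and 1320 and 1320 CPM in WT-labelled libraries, a difference that did not pass.

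Immediate early genes, switched on within minutes by growth factors, were the other group at anchors of the KO-labelled list. All 5 under anchors broad in that list alone rose, and 24 of the 26 on the list did. Egr1, a zinc-finger factor, had 80.0 and 76.8 CPM in KO-labelled libraries, against 0.256 and 0.434 CPM in WT-labelled libraries (log2 fold change 7.86 ± 0.14, edgeR adjusted p = 2.53e-24). Fos had 21.3 and 21.6 CPM in KO-labelled libraries, against 1.68 and 1.84 CPM in WT-labelled libraries (log2 fold change 3.61 ± 0.15, edgeR adjusted p = 1.3e-16), under an anchor of 10663 bases with 207 tags. Dusp5, a phosphatase of ERK, rose by 3.03, Zfp36, a factor of mRNA decay, by 2.35 and Id3, an inhibitor of bHLH factors, by 1.41. Ier2 and Spry2 also rose, by 0.94 and 0.56, though broad in the WT-labelled list alone, and Jund, broad in both, rose by 1.69. For these genes the RNA went up whichever list held the broad anchor, but the other list was not empty there. Narrower KO-labelled anchors covered 58.2% of the Ier2 anchor and 71.3% of the Spry2 anchor, the widest of 8118 and 9504 bases. At Zfp36 the WT-labelled list had 3 narrower anchors with 262 tags, against 249 tags in the broad KO-labelled anchor. Divided by list total, tags were higher in the WT-labelled list at Zfp36 and in the KO-labelled list at Dusp5, Egr1, Fos and Id3.

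**Figure D4:**
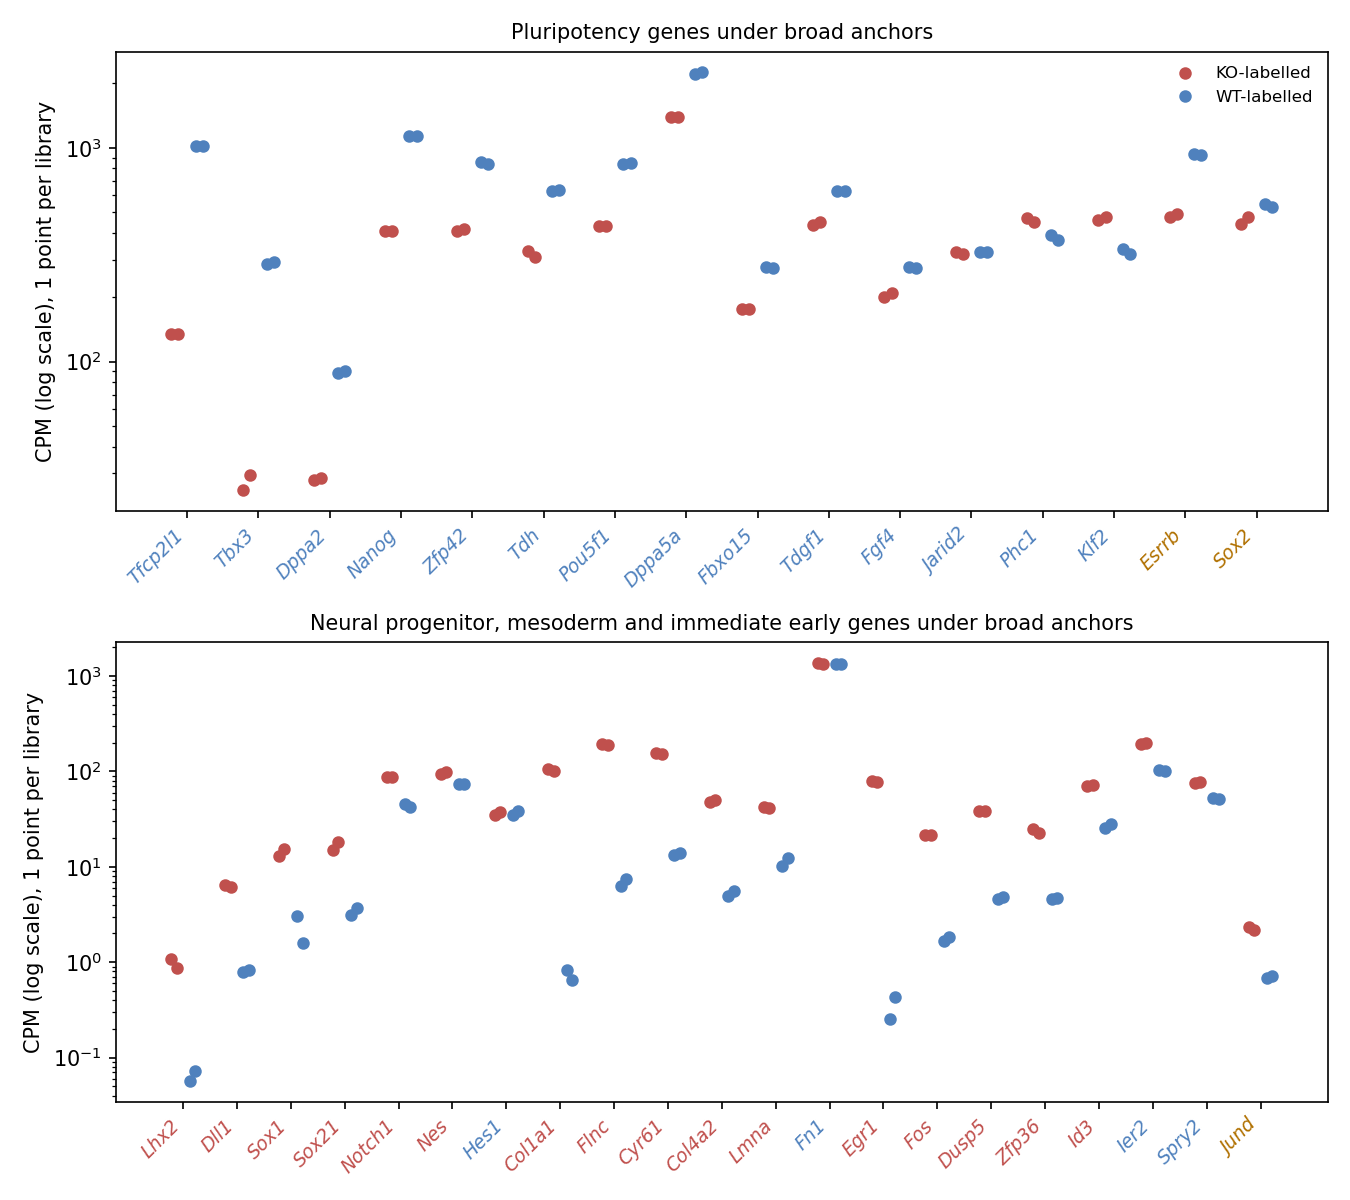
CPM (log scale) in each RNA-seq library for genes under broad anchors, KO-labelled in red left of WT-labelled in blue; gene names are red, blue or orange where the anchor is broad in the KO-labelled list alone, the WT-labelled list alone or both. Most pluripotency genes (top) are lower in KO-labelled libraries, except Phc1 and Klf2, and Jarid2 overlaps; among the others (bottom) Hes1 overlaps and Fn1 nearly so.

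Genes for translation, chaperones and glycolysis gave 7 members under anchors broad in the WT-labelled list alone and none in the KO-labelled list, of 35. Hspa8, the constitutive heat shock cognate, had 1280 and 1250 CPM in KO-labelled libraries, against 3300 and 3290 CPM in WT-labelled libraries (log2 fold change -1.38 ± 0.022, edgeR adjusted p = 2.26e-25). The log2 fold change was -1.35 for Set, a histone chaperone, -0.80 for Pkm, the pyruvate kinase, -0.53 for Gapdh, -0.49 for Ptma and -0.46 for the chaperone Hsp90aa1, and 0.46 for Eef2, the translocase of translation. Over the whole list 30 fell and 4 rose. Of 36 genes for the polymerase and its elongation factors, Polr2e, a subunit shared by the nuclear polymerases, and Aff1, the scaffold of the super elongation complex, lay under anchors broad in the WT-labelled list alone, with log2 fold changes of -1.28 and -0.75. Over the whole polymerase list 26 genes fell and 6 rose. Aff1 held neighbouring broad anchors of 36383 and 10739 bases.

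Replication-dependent histone genes were covered in clusters. Of 64, 28 lay under anchors broad in the WT-labelled list alone and 4 under meeting anchors, and single anchors took in many of these short genes, such as 29285 bases on chromosome 13 with Hist1h1a, Hist1h1c and their neighbours. Over the whole list 30 passed the filter, 13 of which fell and 2 rose. Of the 28, only 15 passed the filter, 8 of which fell and 1, Hist1h1c, rose. Each of those 8 had under 2 CPM in every library. Of the 8, Hist1h2bb, Hist1h3a and Hist1h3e did not pass with DESeq2, library size alone, no filter or the replicate block, and Hist1h2bj and Hist1h4n did not pass on leaving out some single libraries. Copies are near identical and could split reads, so single histone values are uncertain, and how the RNA was selected is not given in the sources used here.

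Long noncoding RNAs at meeting anchors included the nuclear speckle RNA Malat1 and its neighbour Neat1, the scaffold of paraspeckles. Malat1 had 494 and 506 CPM in KO-labelled libraries, against 261 and 259 CPM in WT-labelled libraries (log2 fold change 0.94 ± 0.028, edgeR adjusted p = 1.13e-19), with anchors of 16757 and 16564 bases in the KO-labelled and WT-labelled lists. Neat1 had 58.1 and 60.3 CPM in KO-labelled libraries and 55.4 and 54.1 CPM in WT-labelled libraries, a difference that did not pass. The strongest loop of the Malat1 anchor in the KO-labelled list, with 132 tags, joined it to a neighbouring anchor of 9872 bases that touched Neat1. Another loop, with 115 tags, joined it to the broad Neat1 anchor. Under anchors broad in the WT-labelled list alone, Platr10 rose by 0.29 and Snhg12 did not pass. Foxd3, a factor of the primed epiblast, had a log2 fold change of -0.20 that did not pass without KO replicate 1 or WT replicate 1 (-0.14 and -0.17) and was 0.006 with library size alone. Of 20 genes on the primed epiblast list, only Foxd3 lay under a broad anchor, and over the whole list 18 rose and 2 fell. Gata3, a trophoblast factor, rose by 1.87 (2.56 without WT replicate 1) at a WT-labelled anchor with 4 tags.

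The widest anchors were not those with the largest RNA differences. The widest of the KO-labelled list, with Mir9-1, also held Mir3093 and AW047730 and the edge of Rhbg, an ammonium transporter with 7 and 10 counts in KO-labelled and 3 and 2 in WT-labelled libraries, and it looped most strongly, with 77 tags, to Mef2d, a MADS-box factor. The next, 46414 bases on chromosome 8 with 736 tags, joined Vac14, a regulator of a lysosomal lipid kinase, and Mtss1l. Vac14 had 60.0 and 58.8 CPM in KO-labelled libraries, against 78.1 and 79.4 CPM in WT-labelled libraries (log2 fold change -0.41 ± 0.053), and Mtss1l had 25.4 and 23.2 CPM against 16.7 and 16.7 CPM (0.54 ± 0.099, edgeR adjusted p of 2.21e-07 and 3.51e-05). The anchor with most tags in the KO-labelled list, 1012, spanned 44090 bases of Sept9, a septin, whose log2 fold change of -0.10 became 0.11 with library size alone. Adora1, the adenosine A1 receptor, lay under 42796 bases with 737 tags and had 9 and 7 counts in KO-labelled libraries and 0 and 0 in WT-labelled ones.

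In the WT-labelled list the widest anchor that met no broad one, 43673 bases with 335 tags, held Mybl2, a cell-cycle factor, and Gtsf1l. Mybl2 had 934 and 945 CPM in KO-labelled libraries and 928 and 933 CPM in WT-labelled libraries, a log2 fold change of 0.01 that did not pass (0.23 with library size alone, which passed), and Gtsf1l fell by 0.79. The next, 40397 bases with 905 tags, held Senp3, a SUMO protease, which had 189 and 188 CPM in KO-labelled libraries, against 458 and 459 CPM in WT-labelled libraries (log2 fold change -1.28 ± 0.029, edgeR adjusted p = 4.65e-22). Its neighbours Tnfsf12 and Tnfsf13 had at most 1.08 CPM in any library and did not pass. An anchor of 38482 bases inside Rims1, a synaptic gene, had 12 tags over 3 loops, and Rims1 had 0 counts in all 4 libraries.

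The largest RNA differences under broad anchors ran both ways. Under anchors broad in the KO-labelled list alone, the largest rises after Egr1 and Col1a1 were those of Irs1, the insulin receptor substrate, by 6.02, Arsi, a sulfatase, by 5.39, and Fbln2, a matrix protein, by 5.03. The values of Irs1 and Arsi rest on 19 and 1 and on 1 and 13 counts in the WT-labelled libraries. Without WT replicate 1 they were 9.02 and 4.34, and without WT replicate 2 they were 5.24 and 8.22, so their order is not settled. Among the genes that fell, Trpm1, a cation channel, had a log2 fold change of -5.60, and Zbtb7c of -3.67. Hmga2, a chromatin protein of embryonic cells, had 31.4 and 36.4 CPM in KO-labelled libraries, against 147 and 147 CPM in WT-labelled libraries (edgeR adjusted p = 1.26e-19). Rapgef3, a cAMP-regulated exchange factor, had 3.62 and 3.51 CPM in KO-labelled libraries, against 16.3 and 14.5 CPM in WT-labelled libraries (edgeR adjusted p = 5.38e-12).

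Under anchors broad in the WT-labelled list alone, the largest falls were those of Aurkc, an Aurora kinase of germ cells, with 1.58 and 1.90 CPM in KO-labelled libraries, against 84.2 and 83.0 CPM in WT-labelled libraries (log2 fold change -5.58 ± 0.10, edgeR adjusted p = 3.29e-24). The log2 fold change was -5.57 for Il6ra, the interleukin-6 receptor chain, -5.17 for Zfp536 and -5.16 for Sh2d4b. Against the main direction, Sgce, the epsilon-sarcoglycan gene, had 50.6 and 50.0 CPM in KO-labelled libraries, against 1.74 and 1.77 CPM in WT-labelled libraries (log2 fold change 4.84 ± 0.12, edgeR adjusted p = 1.79e-21). Platr22 rose by 4.76, Slit3, an axon guidance ligand, by 3.22, Gabrp, a GABA-A receptor subunit, by 3.15 and Zbtb4 by 3.00.

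At meeting anchors the largest fall was that of Sall3, with a log2 fold change of -3.85. Ckb, the brain-type creatine kinase, had 154 and 150 CPM in KO-labelled libraries, against 1120 and 1120 CPM in WT-labelled libraries (log2 fold change -2.88 ± 0.028, edgeR adjusted p = 1.67e-29), although its KO-labelled anchor was the wider, with 31890 against 12660 bases. The log2 fold change was -2.37 for Nfib, -1.83 for Alpl, the alkaline phosphatase used to stain stem cells, -1.74 for Zfhx2, -1.21 for Myo10 and -0.36 for Zmynd8, a chromatin reader. Zmynd8 held the strongest loop between broad anchors of the KO-labelled list, with 315 tags over 25 kb. Rises at meeting anchors were smaller, by 2.23 for Tmem220, 1.84 for Sh3tc1, 1.58 for Lemd1, which hosts Mir135b, and 1.23 for Bbc3, the p53 target PUMA.

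Some broad anchors stood in runs. Another broad anchor of the same list lay within 20 kb of 248 of 958 KO-labelled and 149 of 862 WT-labelled broad anchors. The KO-labelled list had 9 within 144765583 to 145226505 on chromosome 7, a stretch with Fgf3, Fgf4, Fgf15 and Ccnd1, where the WT-labelled list had 2. Fgf15, an FGF ligand of the embryonic brain, had 6.71 and 6.95 CPM in KO-labelled libraries, against 1.25 and 2.46 CPM in WT-labelled libraries (log2 fold change 1.91, edgeR adjusted p = 5.69e-07). Ccnd1, cyclin D1, had 74.7 and 85.5 CPM in KO-labelled libraries, against 196 and 200 CPM in WT-labelled libraries (log2 fold change -1.30, edgeR adjusted p = 9.22e-16). Fgf3, Fgf4 and Tpcn2 of the same stretch also fell, with log2 fold changes of -2.87, -0.42 and -0.86. A run of 7 on chromosome 17 lay by Zfp36l2, an mRNA decay factor, which had 133 and 134 CPM in KO-labelled libraries, against 51.8 and 56.1 CPM in WT-labelled libraries (log2 fold change 1.31, edgeR adjusted p = 9.21e-18). Thada, in the same chromosome 17 stretch, fell, with a log2 fold change of -0.34. These runs and their genes were picked for the number of anchors within 500 kb after the lists were seen.

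In the WT-labelled list the densest run was 7 on chromosome 11 around Msi2, an RNA-binding protein of stem and neural cells, which rose by 0.19, and Akap1, which fell by 1.27. A run of 5 on chromosome 17 held Ccnd3, cyclin D3, and Tfeb, the regulator of lysosomal genes. Tfeb had 21.1 and 19.1 CPM in KO-labelled libraries, against 99.9 and 99.0 CPM in WT-labelled libraries (log2 fold change -2.31, edgeR adjusted p = 1.99e-20), and Ccnd3 fell by 0.83. The run with Esrrb and Irf2bpl also had 5 in the WT-labelled list, against 2 in the KO-labelled list.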

How the data were processed

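Members, gene lists and named genes were chosen with earlier results of these data known. The authors deposited RNA-seq as raw counts per gene symbol. The submitters' processing notes name mm10, HISAT2 2.1.0 and featureCounts 2.0.3, but the deposited count tables close with tally rows of the htseq-count form, so the counter is not settled. The strand setting and annotation were not found, so reads of antisense or overlapping genes cannot be separated. The authors deposited loops as anchor coordinates, counts of tags and a q-value (false discovery rate) per loop, in lists that appear pooled over replicates. The same notes also name MACS2 2.2.7.1, HiC-Pro 2.11.1 and Bowtie2 2.4.4. The loop caller is stated in no header or label; the deposited file names carry the word mango.

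Coordinates are 1-based, GRCm38.p6. Genes were assigned where an anchor overlapped the body by at least 1 base; 35101 count rows matched RefSeq by symbol and 707 by a unique synonym. Counts were filtered with filterByExpr, scaled with TMM and, under R 4.3.3, compared by edgeR 4.0.16 (robust glmQLFit, then glmQLFTest, two-sided), 2 libraries per label, with no block, checked on simulated data. CPM uses TMM-scaled library sizes. A standard error is the fold change over the square root of F. A count of 3 was 0.0837 to 0.108 CPM. Intervals and floors cover counting error only. Replicates differed beyond sampling noise. DESeq2 1.42.0, other scaling, no filter, a replicate block, each library left out, and other widths, overlaps and loop filters were alternatives. Named were Klf4, genes under the 5 widest anchors per class, list members under broad anchors, and the 5 largest rises and falls with at least 5 CPM in the higher label and libraries apart. Some items that rule names are not reported here. ChIP-seq samples were not analysed here.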

Additional observations from a re-analysis of the deposited data

How the results depend on the processing

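The number of broad anchors was 1833 in the KO-labelled and 1559 in the WT-labelled list at 8000 bases, and 249 and 286 at 15000 bases. The share meeting a broad anchor was 8.92% of the WT-labelled list at 8000 bases, and 2.81% and 2.45% at 15000 bases; with any anchor of the other list it was 44.5% and 69.6%. Among loops of FDR at most 0.01 and at least 2 tags, those with a broad anchor at either end held 45% and 62.6% of tags. Among genes with an annotated start inside, anchors broad in the KO-labelled list alone had 196 higher and 73 lower of 332 tested. Those broad in the WT-labelled list alone had 77 higher and 313 lower of 477. Over all genes tested, 37.2% were higher and 35.8% lower. With at least 50% of the body covered, the counts were 91 and 32, 35 and 131, and, for meeting anchors, 7 and 16, as fewer genes were counted. With a mean of at least 10 CPM, added after seeing the data, 212 genes under anchors broad in the KO-labelled list alone were higher and 119 lower. Under meeting anchors 13 were higher and 25 lower.

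With library size alone, Sept9 was at 0.107, Jarid2 at 0.193, Foxd3 at 0.006 and Hes1 at 0.185 on the log2 scale, all reversed; the cause was not tested. Over 109 named genes and 981 values, 935 stayed on their side of the threshold, 10 of which, of genes called under neither setting, changed sign; 34 no longer passed and 8 newly passed, among them Mybl2, Fn1 and Neat1 with library size alone. Leaving out each library gave 355 to 365 higher and 139 to 150 lower genes under anchors broad in the KO-labelled list alone, 130 to 133 and 427 to 440 under those broad in the WT-labelled list alone, 16 to 18 and 30 to 32 under meeting anchors, and 5781 to 6235 and 5878 to 6038 over all genes; a lone library was then assumed to vary like the others. Deviations of libraries with the same replicate number correlated at 0.03 over 11400 genes, so no pairing by number was seen. Whether such libraries shared a culture or preparation was not tested. With a replicate block, 6298 genes rose and 6112 fell, with 375 and 149, 136 and 437, and 20 and 33 in the 3 anchor sets. HiChIP depth differed between the lists, and with 1 list per label no difference between anchors has a replicate check.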
